A study of Mus musculus with 9 samples.

Results

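Krüppel-like factors are zinc finger transcription factors that bind CACCC and GC boxes in DNA. This account covers 9 genes of the family, Klf2, Klf3, Klf4, Klf6, Klf7, Klf9, Klf10, Klf13 and Klf15, in small blood vessels of mouse brain. They were chosen by name, from the probe sets whose platform annotation names a single gene, and are 9 of 18194 genes with such a probe set. Where a gene had several probe sets, the one of highest average signal was read, and the others served as a check. All 9 genes were among the 12009 tested, for which 3 or more of the 9 arrays had to reach a log2 value of 4. In GRCm38.p6 they lie on 9 chromosomes: Klf2 at chr8:72319062-72321654, Klf3 at chr5:64803521-64832901, Klf4 at chr4:55527137-55532475, Klf6 at chr13:5861489-5870393, Klf7 at chr1:64029448-64122345, Klf9 at chr19:23141226-23168129, Klf10 at chr15:38291464-38300711, Klf13 at chr7:63886351-63938915 and Klf15 at chr6:90461043-90491803.

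Total RNA was measured on Affymetrix short oligonucleotide arrays, with 3 biological replicates per group and 1 array per sample. Adult fragments were brain microvascular fragments, short pieces of small vessels, from mice aged 1 year of a mixed C57/SV129 background, 2 males and 1 female. Embryonic fragments were the same preparation from NMRI embryos at embryonic day 18.5, of unstated sex. Rest of brain was the brain tissue of such embryos without the fragments, and the description of its replicate 3 gives the embryonic day differently from its other labels. No group carried a transgene or a treatment per the labels, and how many animals made up a sample, or whether samples shared a litter, is not stated. The p-values therefore measure the spread between these samples. Strain and RNA extraction kit (a mini kit for adults, a micro kit for embryos) went with age, so their effects and that of age cannot be told apart.

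In endothelium, blood flow is known to induce KLF2 and KLF4 through the kinases MEKK3, MEK5 and ERK5 and the MEF2 factors, and both proteins favour a quiescent, antithrombotic vessel wall. The CCM protein complex restrains this pathway, and its loss in brain endothelium raises both factors and leads to cavernous malformations. Other family members are known for different inputs: KLF9 and KLF15 respond to glucocorticoids, KLF9 also to thyroid hormone, and KLF10 was found as an early TGF-beta response gene.

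All levels below are on the log2 scale, from array intensities that GCRMA had corrected for background and normalized. The median over all probe sets was 3.58 to 3.67 per array, and precision is set by having 3 arrays in a group. The fragments carried their labelled cell types. All 10 endothelial markers, such as Cldn5 and Esam, were higher in embryonic fragments than in rest of brain, with a mean log2 level of 12.10 to 12.34 per array in embryonic fragments and 4.58 to 4.91 in rest of brain. In adult fragments that level was 12.84 to 13.07. All 10 macrophage markers, such as Csf1r and Ctss, were also higher in embryonic fragments (median 3.22), as were 7 of 7 tested pericyte markers, such as Rgs5 and Pdgfrb (median 2.72), and 5 of 6 smooth muscle markers (median 3.34). The macrophage level was 10.73 in embryonic fragment replicate 1, lower than the 12.28 and 12.41 of the other two. Neuron markers such as Stmn2 and Tubb3 (9 of 9 tested, median −5.46), progenitor markers such as Fabp7 and Sox2 (7 of 7, median −4.34) and oligodendrocyte markers such as Cnp and Mbp (4 of 5, median −3.16) were lower in embryonic fragments than in rest of brain. Of 7 proliferation markers 2 were higher and 0 lower there (median 0.25). Between the ages, all 7 proliferation markers tested, Mki67 and Top2a among them, were lower in adult fragments (median difference −7.59, or −6.91 with the genes at background set to their bound). Of the 7 progenitor markers 5 were lower and 0 higher, and of the 9 neuron markers 4 were lower and 2 higher.

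The bases just upstream of 4 members are shown. Klf2, Klf4 and Klf9 had the largest differences among the members, and Klf15 had the largest negative one. The sequences are the 250 bases before the gene start in RefSeq (GRCm38.p6), 5′ to 3′ on the strand of the gene. Of the 9 members, 8 had an entry, and for Klf7 and Klf15 the window lies inside the span of the gene. Capitals mark the E-box CACGTG, which clock proteins bind, the cAMP response motif TGACG, which reads CGTCA on the other strand, and the MEF2 consensus, searched on both strands. No marked motifs overlap in these windows. The windows are chr8:72318812-72319061 on the plus strand for Klf2, chr4:55532476-55532725 on the minus strand for Klf4, chr19:23140976-23141225 on the plus strand for Klf9 and chr6:90462326-90462575 on the plus strand for Klf15.
Klf2: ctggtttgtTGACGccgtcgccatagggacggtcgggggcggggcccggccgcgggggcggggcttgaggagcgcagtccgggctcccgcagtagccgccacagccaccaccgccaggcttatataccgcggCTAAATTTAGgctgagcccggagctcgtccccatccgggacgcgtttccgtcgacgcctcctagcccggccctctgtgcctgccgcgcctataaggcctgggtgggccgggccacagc
Klf4: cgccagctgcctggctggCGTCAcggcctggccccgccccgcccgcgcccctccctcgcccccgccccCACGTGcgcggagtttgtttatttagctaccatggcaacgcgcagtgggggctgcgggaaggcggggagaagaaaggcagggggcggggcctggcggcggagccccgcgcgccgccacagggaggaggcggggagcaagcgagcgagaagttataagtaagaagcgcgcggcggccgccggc
Klf9: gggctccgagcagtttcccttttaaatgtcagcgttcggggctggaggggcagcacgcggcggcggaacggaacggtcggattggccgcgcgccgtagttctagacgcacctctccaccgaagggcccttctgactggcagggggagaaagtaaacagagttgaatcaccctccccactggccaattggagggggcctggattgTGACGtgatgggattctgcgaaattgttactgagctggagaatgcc
Klf15: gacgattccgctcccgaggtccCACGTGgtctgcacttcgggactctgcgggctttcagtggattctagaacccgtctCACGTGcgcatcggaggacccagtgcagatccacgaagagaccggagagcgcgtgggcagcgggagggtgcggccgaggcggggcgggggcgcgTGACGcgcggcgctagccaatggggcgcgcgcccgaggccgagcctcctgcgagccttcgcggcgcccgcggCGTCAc
The Klf2 window held a match to the MEF2 consensus, its nearest base 109 bases upstream of the start. The windows of the other members, Klf4 among them, held none. Such a match stood in 2.92% of 32851 mouse promoter windows of this length. An E-box stood in 3 of the 8 windows of the members, those of Klf4 (177 bases upstream), Klf6 and Klf15, and in 6.02% of all windows. TGACG stood in 5 of the 8, those of Klf2, Klf4, Klf9, Klf13 and Klf15, and in 17.8% of all windows. The glucocorticoid response element consensus matched in 0 of the 8 windows of the members and in 0.387% of all windows. The CACCC box stood in 52.0% of all windows, and in those of the members except Klf4 and Klf6. The GC box GGGCGG stood in 32.7% of all windows, and in those of the members except Klf9. G and C made up 71.2% of the Klf2 window, 74.0% of the Klf4 window, 59.6% of the Klf9 window and 72.0% of the Klf15 window, against a median of 52.4% over all windows. A match is a description of these letters, not a site in use.

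The first comparison set vessels against the surrounding tissue in the embryo. In embryonic fragments 6 of the 9 members rose relative to rest of brain (Klf2, Klf3, Klf4, Klf6, Klf10 and Klf13), Klf7 and Klf15 fell, and Klf9 did not pass the test. Of all 12009 tested genes, 66.1% were called in this comparison at a limma adjusted p under 0.05, 28.9% as higher and 37.2% as lower. The median difference was 1.96 over the 9 members and −0.10 over all tested genes, on the log2 scale. Bulk tissue cannot tell more cells of a type from more RNA per cell, and this holds for every comparison here. The endothelial, pericyte, macrophage and smooth muscle markers given above were higher in the same fragments, and their part in the members' differences was not tested.

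Klf2, the flow-induced endothelial factor, differed most among the members. It had 12.85, 12.85 and 12.61 in embryonic fragments, against 6.24, 5.64 and 6.20 in rest of brain. The groups lay far apart, and the difference was 6.74 ± 0.19 (SE, 107-fold, adjusted p = 7.52e-09). Of all tested genes 0.883% had a larger difference. Klf4, its relative that responds to the same pathway, had 13.27, 13.27 and 13.23 in embryonic fragments, against 8.44, 8.17 and 8.13 in rest of brain. It was higher by 5.01 ± 0.11 (32.1-fold, adjusted p = 1.99e-09), and its other probe set by 5.31 ± 0.14. For both genes the deposited values of embryonic fragment replicates 1 and 2 were equal to the last digit, as they were for 158 of 12009 genes (1.32%). Over all pairs of arrays within a group that share was 0.58% to 1.82%.

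Klf6, known as an injury and growth response gene, and Klf10 rose by similar amounts. Klf6 had 12.42, 12.55 and 12.16 in embryonic fragments, against 10.42, 10.36 and 10.47 in rest of brain, a difference of 1.96 ± 0.19 (adjusted p = 2.2e-05). Klf10 had 10.99, 10.73 and 11.10 in embryonic fragments, against 8.99, 8.76 and 8.82 in rest of brain, a difference of 2.08 ± 0.15 (adjusted p = 2.46e-06). In both genes every embryonic fragment array lay above every rest of brain array. All 5 tested probe sets of Klf6 were higher, by 1.81 to 2.96. Klf13, a factor of the KLF9 subgroup that recruits the corepressor SIN3A, had 11.17, 11.00 and 10.97 in embryonic fragments, against 9.11, 8.92 and 8.95 in rest of brain. The groups did not overlap and differed by 2.05 ± 0.28 (adjusted p = 0.000176). Klf3, a repressor that binds CtBP proteins, had 13.26, 13.05 and 13.08 in embryonic fragments, against 11.64, 11.58 and 11.32 in rest of brain. It was higher by 1.62 ± 0.12 (adjusted p = 2.96e-06), and all 5 of its tested probe sets were higher, by 0.69 to 1.91.

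Klf7, known for its part in the outgrowth of axons, was lower in embryonic fragments. It had 10.69, 11.02 and 10.26 there, against 11.35, 11.35 and 11.47 in rest of brain. All embryonic fragment arrays lay below rest of brain, by 0.73 ± 0.20 on average (adjusted p = 0.00924). Of its 4 probe sets 2 passed the test, and all 4 differences were negative. Klf15, a regulator of amino acid breakdown, had 5.82, 6.96 and 6.57 in embryonic fragments, against 9.52, 9.46 and 9.19 in rest of brain. It fell by 2.94 ± 0.54 (7.67-fold lower, adjusted p = 0.00117), with wider spread in the fragments than in any other member there. Markers of several cell types were lower there too. Of 7 tested astrocyte markers 6 were lower and 0 higher in embryonic fragments, with mean levels of 7.07 to 8.47 there and 11.19 to 11.83 in rest of brain. Their median was −3.78, beside −5.46 for neuron, −4.34 for progenitor and −3.16 for oligodendrocyte markers. The part of these cell types in the result was not tested.

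Klf9, the glucocorticoid and thyroid hormone responsive member, had 11.58, 11.69 and 11.44 in embryonic fragments, against 11.72, 11.67 and 11.37 in rest of brain. The groups overlapped, and the difference was −0.02 (95% interval −0.32 to 0.29, adjusted p = 0.929). The differences of its 5 tested probe sets lay between −0.18 and 0.15, and none of them passed the test.

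**Figure D1:**
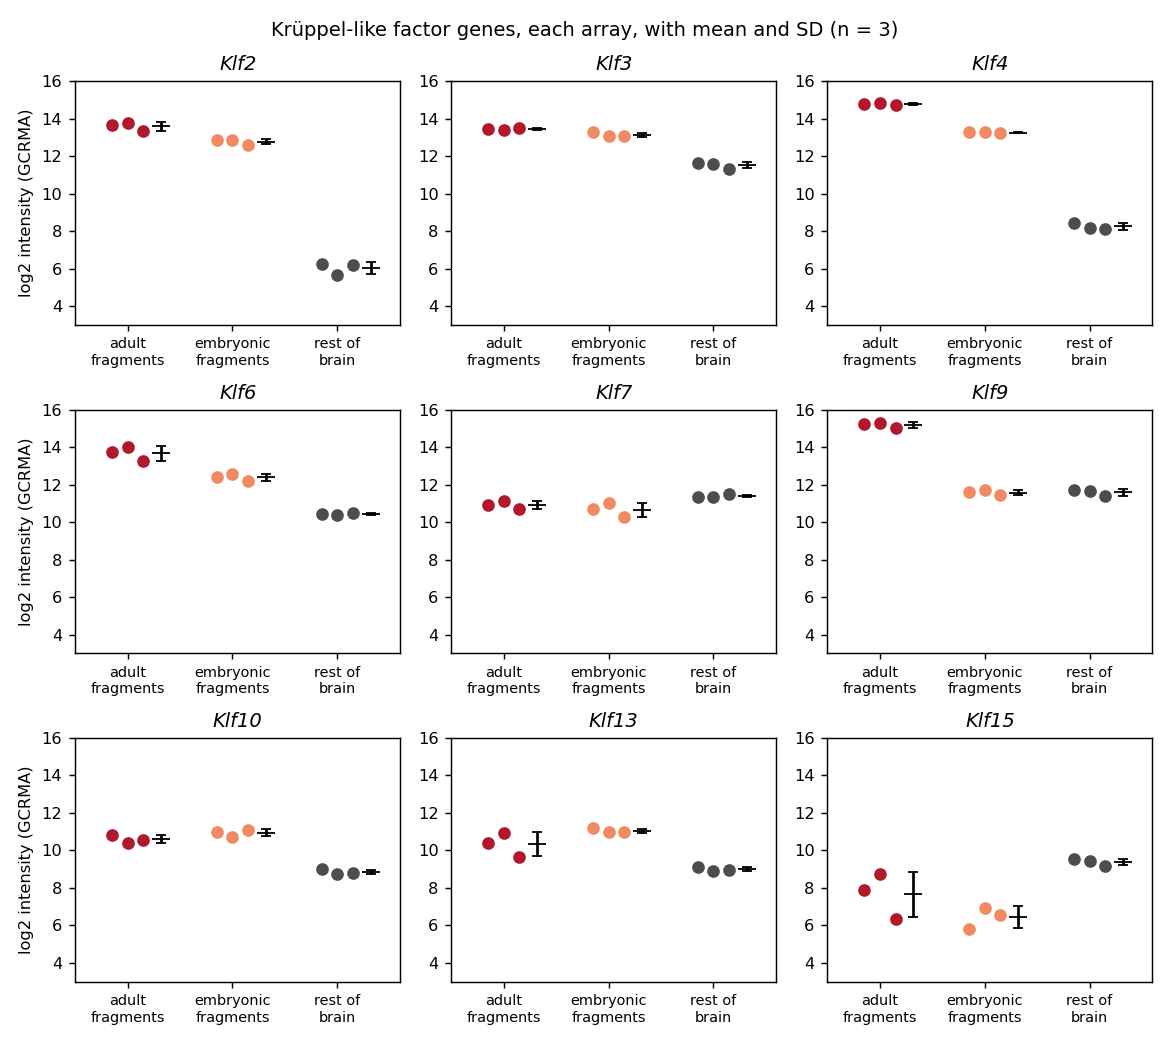
Each panel shows 1 gene, with the log2 intensity after GCRMA of every array as points and the mean ± SD of the 3 arrays beside them, for adult fragments, embryonic fragments and rest of brain. Klf2 and Klf4 sit higher in both kinds of fragment than in rest of brain. Klf9 sits higher in adult fragments, with 15.02 to 15.28, than in embryonic fragments and rest of brain, with means of 11.57 and 11.59.

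The second comparison set vessels of adults against those of embryos. It shares the embryonic fragment arrays with the first, so values are given side by side. In adult fragments 5 of the 9 members passed the test as higher than embryonic fragments (Klf9, Klf4, Klf6, Klf2 and Klf3) and 0 as lower. With the next probe set of each gene, or with the mean of its probe sets, 4 were higher and 2 lower. The genes called were then not the same ones. On its next probe set Klf4 was not called (0.18) and Klf7 was called higher (0.72). Klf3 and Klf13 were called lower on theirs (−0.91 and −2.18). Of all tested genes 57.1% were called here, 27.4% as higher and 29.7% as lower. The median difference was 0.83 over the members and −0.02 over all tested genes.

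Of the members, Klf9 differed most between the ages. Adult fragments had 15.22, 15.28 and 15.02, against 11.58, 11.69 and 11.44 in embryonic fragments. Every adult array lay more than 3 log2 units above every embryonic one. The difference was 3.60 ± 0.13 (12.2-fold, adjusted p = 1.4e-07), and 2.31% of tested genes had a larger one. All 5 tested probe sets of Klf9 were higher in adult fragments, by 3.04 to 3.73.

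Klf4 had 14.77, 14.81 and 14.70 in adult fragments, against 13.27, 13.27 and 13.23 in embryonic fragments. The groups did not overlap and differed by 1.51 ± 0.11 (2.85-fold, adjusted p = 7.42e-06). The call rests on that probe set, since the other probe set of Klf4 gave 0.18 ± 0.14 (adjusted p = 0.296 over 20636 probe sets). Klf2, read from a single probe set, had 13.67, 13.79 and 13.33 in adult fragments, against 12.85, 12.85 and 12.61 in embryonic fragments. It was higher by 0.83 ± 0.19 (1.77-fold, adjusted p = 0.00567), and every adult array was above every embryonic one. Klf6 had 13.75, 14.01 and 13.24 in adult fragments, against 12.42, 12.55 and 12.16 in embryonic fragments. The groups did not overlap and differed by 1.29 ± 0.19 (2.44-fold, adjusted p = 0.000545). Of its 5 probe sets 3 were called higher, by 1.27 to 1.98, and 2 gave −0.40 and −0.12 without passing the test.

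Klf3 had 13.44, 13.40 and 13.52 in adult fragments, against 13.26, 13.05 and 13.08 in embryonic fragments. The arrays did not overlap, and the difference of 0.32 ± 0.12 passed narrowly (adjusted p = 0.0447). The call was lost without any 1 of 7 arrays, the exceptions being embryonic fragment replicate 1 and rest of brain replicate 3, with 0.29 to 0.39 over the 9 such fits. The other 4 tested probe sets of Klf3 were all called lower in adult fragments, by −0.61 to −1.03, so its direction with age depends on the probe set. Probe sets of a gene can read different transcripts or ends of a transcript, and which transcripts these were was not tested.

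For the remaining 4 members the test was not passed. Klf15 had 7.89, 8.74 and 6.37 in adult fragments, against 5.82, 6.96 and 6.57 in embryonic fragments. Replicate 3 fell within the embryonic range while the other two lay above it, and the difference was 1.21 ± 0.54 (95% interval −0.02 to 2.45, adjusted p = 0.086). Without adult replicate 3 it was 1.86 and passed (adjusted p = 0.00324), and without adult replicate 2 it was 0.68 (adjusted p = 0.265). Klf13 had 10.42, 10.95 and 9.65 in adult fragments, against 11.17, 11.00 and 10.97 in embryonic fragments. All adult arrays lay below the embryonic ones, by 0.71 ± 0.28 on average (adjusted p = 0.0581). Its other tested probe set was called lower by −2.18 (adjusted p = 9.39e-05), and without adult replicate 2 the probe set in use passed too, at −1.01 (adjusted p = 0.00585). Without adult replicate 3 it gave −0.36 (adjusted p = 0.104). Replicate 2, the female, had the highest adult value of Klf2, Klf4, Klf6, Klf7, Klf9, Klf13 and Klf15, and with 1 female array its sex cannot be told apart from other differences between animals.

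Klf10 had 10.84, 10.42 and 10.55 in adult fragments, against 10.99, 10.73 and 11.10 in embryonic fragments. The ranges overlapped, and the difference was −0.34 ± 0.15 (95% interval −0.68 to 0.0047, adjusted p = 0.085). It passed without embryonic fragment replicate 2 (−0.44, adjusted p = 0.0484) or without adult replicate 1 (−0.45, adjusted p = 0.0341). Klf7 had 10.88, 11.10 and 10.67 in adult fragments, against 10.69, 11.02 and 10.26 in embryonic fragments. These ranges overlapped as well, with a difference of 0.23 ± 0.20 (95% interval −0.22 to 0.67, adjusted p = 0.357). Of its 3 other probe sets 2 were called higher, by 0.72 and 1.07, and 1 gave −0.21.

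**Figure D2:**
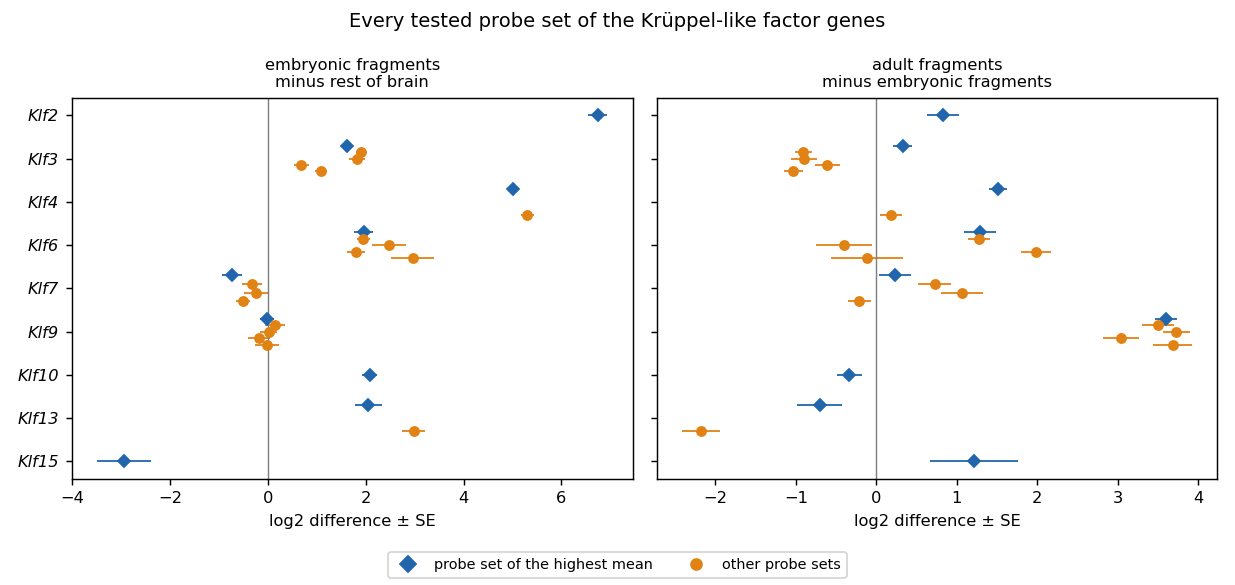
Each row is 1 gene, and each point the log2 difference ± SE of 1 tested probe set, on the left for embryonic fragments minus rest of brain and on the right for adult minus embryonic fragments, with the probe set of the highest mean as a diamond. The 5 probe sets of Klf9 lie together between 3.04 and 3.73 on the right, while those of Klf3 fall on both sides of 0.

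Other cell types moved with age beside these genes. Of 6 smooth muscle markers, such as Acta2 and Mylk, 5 were higher and 1 lower in adult fragments, with mean levels of 11.32 to 11.68 in adult fragments against 8.28 to 8.67 in embryonic fragments. The median difference of this list was 3.77, or 3.05 with the gene at background at its bound. Of 7 astrocyte markers 6, such as Aldoc, were higher and 1, Gja1, lower (median 2.37), with mean levels of 10.63 to 11.22 in adult fragments against 7.07 to 8.47 in embryonic fragments, and Gfap was under 4 on 7 of 9 arrays and was not tested. Oligodendrocyte markers had 2 higher and 1 lower of 5 tested. Endothelial markers had 4 higher and 2 lower of 10 (median 0.26), macrophage markers 2 and 2 of 10, and pericyte markers 2 and 2 of 7 (median 0.22). The part of smooth muscle and astrocyte RNA in the differences of Klf4, Klf6, Klf9 and Klf15 was not tested.

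Adult fragments set against rest of brain reuse the arrays of both comparisons above. Here all 9 members passed the test, 7 higher and 2 lower, where 76.0% of all tested genes were called, 33.1% as higher and 42.9% as lower. The members had a median difference of 1.94, and all genes one of −0.17. Klf2 was higher by 7.57 ± 0.19, Klf4 by 6.51 ± 0.11, Klf9 by 3.59 ± 0.13 and Klf6 by 3.25 ± 0.19. Klf3, Klf10 and Klf13 were higher by 1.94 ± 0.12, 1.75 ± 0.15 and 1.35 ± 0.28. Klf15 was lower by −1.73 ± 0.54 (adjusted p = 0.017), which was no longer called when rest of brain replicate 1 was left out (−1.66, adjusted p = 0.051). Without adult replicate 3 it was −1.08 (adjusted p = 0.0267). Klf7 gave −0.51 ± 0.20 (adjusted p = 0.0412), a call lost without any 1 of 6 arrays (embryonic fragment replicate 1, adult replicates 1 and 3, and each rest of brain replicate), and its other probe sets gave 0.40, 0.83 and −0.73.

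**Figure D3:**
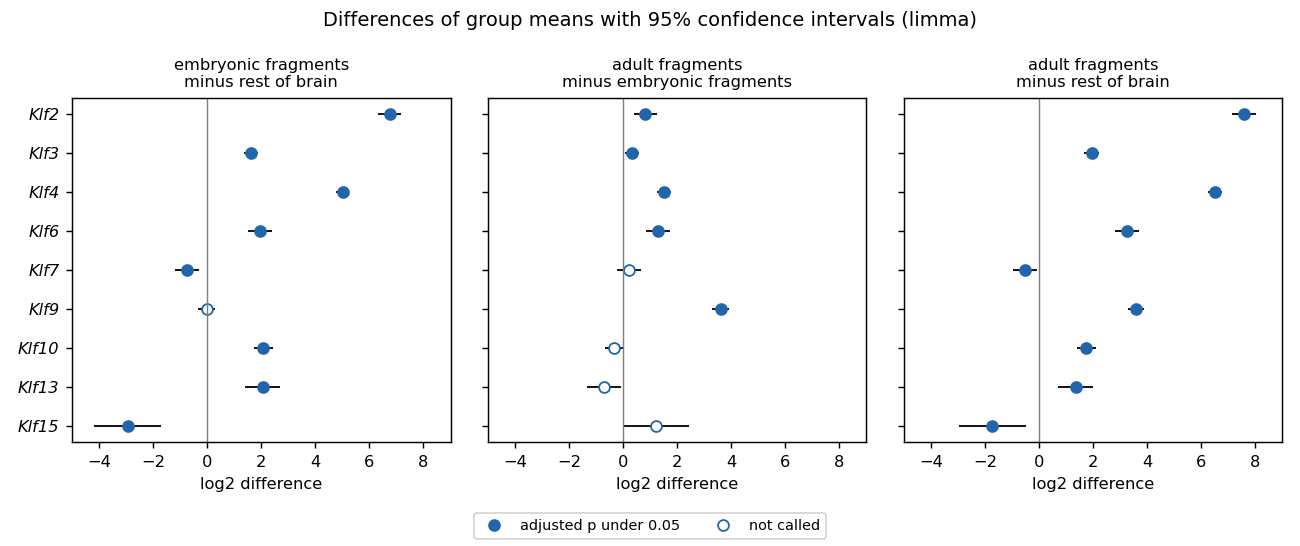
Points are the log2 differences of group means for each gene with their 95% confidence intervals from limma, filled where the adjusted p was under 0.05, for embryonic fragments minus rest of brain, adult minus embryonic fragments and adult fragments minus rest of brain. Klf2 and Klf4 stand far right where fragments are set against rest of brain, and Klf9 stands apart between the ages at 3.60.

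The order of the 3 groups fell into 4 patterns. For Klf2, Klf4 and Klf6 the order was adult fragments, embryonic fragments, rest of brain. Each step passed the test on the probe set in use. Klf3 had that order on the probe set in use. The step between the ages did not pass on every probe set of Klf4 and Klf6. For Klf9 adult fragments came first, and the other two groups did not differ beyond their spread. Klf10 and Klf13 were highest in embryonic fragments, with adult fragments next and not set apart by the test, and rest of brain lowest. The other tested probe set of Klf13 was called lower in adult than in embryonic fragments, by −2.18. Klf7 and Klf15 were highest in rest of brain, and the 2 kinds of fragment were not set apart on the probe sets in use.

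The array held 14 other genes of the KLF and SP families, of which 9 were tested. Klf1, Klf14, Klf17, Sp6 and Sp7 were under 4 on all arrays. In embryonic fragments 2 of the 9 were higher than in rest of brain and 5 lower (median −1.11), the opposite balance to the 6 and 2 of the 9 members. Members and lists were chosen with earlier results of these data known, which limits this contrast, and it was not tested. Sp1, a broadly expressed factor, was higher by 1.43 ± 0.13 and Klf11, a relative of Klf10, by 1.13 ± 0.17. Sp8, a factor of forebrain development, had 2.46 to 2.47 in embryonic fragments, under the background value of 4, against 8.28 to 8.92 in rest of brain, so it was at least 24.5-fold lower. Klf5 was at least 9.75-fold lower, Sp4 was lower by −2.58 ± 0.12, Sp5 by −2.01 ± 0.15 and Klf12 by −1.11 ± 0.14. Sp3 gave −0.02 ± 0.12 and Klf16 −0.02 ± 0.08.

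Between the ages 5 of these 9 genes were higher in adult fragments and 0 lower (median 0.45). Sp4 had 9.93, 10.05 and 9.94 in adult fragments, against 7.59, 7.40 and 7.53 in embryonic fragments, a difference of 2.47 ± 0.12 (adjusted p = 6.33e-07) with no overlap. Klf12 was higher by 1.26 ± 0.14, Klf11 by 1.04 ± 0.17, Sp3 by 0.57 ± 0.12 and Sp1 by 0.45 ± 0.13. Klf5 gave 0.20, Klf16 −0.0041, Sp5 −0.05 and Sp8 −0.0072, with Klf5 and Sp8 at background at both ages.

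Next came genes that act before Klf2 and Klf4. Of 15 genes of flow sensing, the ERK5 cascade and the CCM complex, 8 were higher and 2 lower in embryonic fragments than in rest of brain (median 0.84). Rasip1, a partner of the endothelial receptor HEG1, had 10.46, 10.04 and 10.08 in embryonic fragments and was under 4 on all rest of brain arrays, so it was at least 73.1-fold higher. Heg1 itself was higher by 5.37 ± 0.28, the flow-sensing channel gene Piezo1 by 4.66 ± 0.16 and Map3k3, which encodes MEKK3, by 3.68 ± 0.21. Hdac5, a repressor of MEF2, was lower by −1.15 ± 0.20 and Mapk7, which encodes ERK5, by −0.86 ± 0.32 (adjusted p = 0.0395). The endothelial markers given above moved with this list, and their part was not tested.

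Between the ages 3 of the 15 were higher and 4 lower in adult fragments (median −0.17). Mapk7 had 7.04, 5.66 and 6.79 in adult fragments, against 8.01, 7.89 and 7.66 in embryonic fragments, and was lower by −1.36 ± 0.32 (adjusted p = 0.00596). Hdac7 and Rasip1 were lower too, by −1.27 ± 0.17 and −1.22 ± 0.16, whereas Hdac5 was higher by 1.06 ± 0.20. Of the MEF2 genes, Mef2a gave −0.17, Mef2c 0.48 and Mef2d 0.16, none of which passed the test. After cyclic loess 5 of the 15 were called higher and 3 lower.

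Targets were described from lists of genes that KLF2 or KLF4 are known to induce or repress in endothelium. Among 10 induced genes 5 were higher and 4 lower in embryonic fragments than in rest of brain (median 1.06). Tek, the angiopoietin receptor, was higher by 10.04 ± 0.28 and Nos3, endothelial nitric oxide synthase, by 8.35 ± 0.38, with rest of brain under 4 on 2 of 3 arrays for Tek and 1 of 3 for Nos3. Ccn3 was lower by −2.96 ± 0.34 and Cyp1b1 by −2.26 ± 0.26. Between the ages 7 of the 10 were higher in adult fragments and 0 lower (median 1.51).

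Ccn3 had 11.02, 10.41 and 9.60 in adult fragments, against 6.97, 6.55 and 6.16 in embryonic fragments, with no overlap and a difference of 3.78 ± 0.34 (adjusted p = 2.75e-05). Cyp1b1 was higher by 2.56 ± 0.26. Thbd, which encodes the anticoagulant thrombomodulin, was higher by 2.13 ± 0.30, and the sphingosine receptor gene S1pr1 by 2.09 ± 0.20. Nos3, the most studied of these targets, gave −0.70 ± 0.38 (adjusted p = 0.145).

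Of 7 tested genes known as repressed, 5 were higher and 2 lower in embryonic fragments than in rest of brain (median 4.55). Icam1, a leukocyte adhesion gene, was at least 134-fold higher and Edn1, endothelin, at least 64.6-fold higher, with rest of brain at background for both. F3, tissue factor, was lower by −3.15 ± 0.23, with embryonic fragments under 4 on 2 of 3 arrays. Between the ages 3 were higher and 3 lower in adult fragments (median 0.31). Vcam1, another adhesion gene, had 14.29, 14.95 and 14.99 in adult fragments, against 10.31, 10.97 and 11.06 in embryonic fragments, a difference of 3.96 ± 0.25. F3 was higher by 3.25 ± 0.23, and Ccl2, a monocyte chemokine, was lower by −3.50 ± 0.26.

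**Figure D4:**
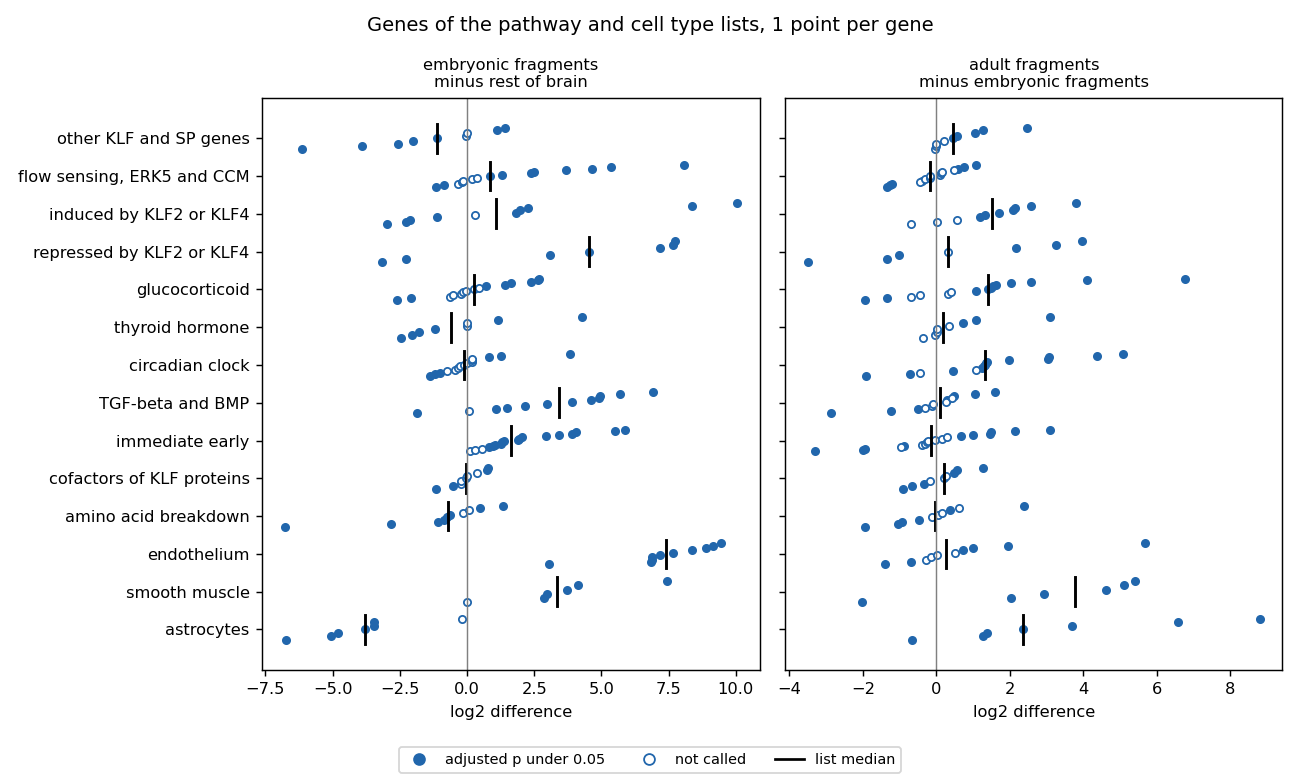
Each point is 1 tested gene of a list, at its log2 difference, filled where the adjusted p was under 0.05, and the bar is the list median, on the left for embryonic fragments minus rest of brain and on the right for adult minus embryonic fragments. On the left panel the endothelial list has a median of 7.42, or 6.89 with the genes at background set to their bound. The list of genes repressed by KLF2 or KLF4 has one of 4.55 and the TGF-beta list one of 3.44, or 3.29 at the bound. On the right panel the medians are 3.77 for smooth muscle, 2.37 for astrocytes, 1.51 for genes induced by KLF2 or KLF4, 1.40 for glucocorticoid and 1.32 for clock genes.

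TGF-beta is a known inducer of Klf10, and Klf4, Klf6 and Klf10 are often counted among immediate early genes. Of 12 TGF-beta and BMP genes 10 were higher and 1 lower in embryonic fragments than in rest of brain (median 3.44, or 3.29 at the bound). Eng, an endothelial coreceptor, was higher by 6.93 ± 0.13 and Tgfb1 at least 12.3-fold, while Id2 was lower by −1.86 ± 0.20. Between the ages 4 were higher and 3 lower in adult fragments (median 0.08), with Tgfbr1 and Smad6 higher by 1.58 ± 0.25 and 1.04 ± 0.20 and Tgfb1 lower by −2.88 ± 0.25. Of 18 immediate early genes 15 were higher and 0 lower in embryonic fragments than in rest of brain (median 1.64). Atf3 was higher by 5.86 ± 0.41 and Maff by 5.49 ± 0.46. Immediate early genes are known to rise in tissue that is handled before lysis, and the time from death to lysis is not stated. Their part in the differences of Klf2, Klf4, Klf6 and Klf10 was not tested.

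Between the ages 6 of the 18 immediate early genes were higher in adult fragments and 4 lower (median −0.14). Egr3 was higher by 3.08 ± 0.48 and Fosl2 by 2.13 ± 0.22, whereas the growth gene Myc had 5.80, 6.02 and 5.81 in adult fragments, against 8.99, 9.42 and 9.13 in embryonic fragments, and was lower by −3.30 ± 0.13. The mean level of the list was 10.94 to 11.31 in adult fragments and 10.85 to 11.33 in embryonic fragments, ranges that overlap.

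Hormone and clock genes were read beside Klf9, Klf13 and Klf15. Of 15 glucocorticoid receptors and response genes 9 were higher and 2 lower in adult fragments than in embryonic fragments (median 1.40). Nr3c2, the mineralocorticoid receptor gene, had 10.67, 10.57 and 10.47 in adult fragments and was under 4 on all embryonic fragment arrays, so it was at least 95.1-fold higher. Hsd11b1, whose enzyme regenerates active glucocorticoid, was at least 6.86-fold higher, and the glucocorticoid receptor gene Nr3c1 was higher by 1.55 ± 0.17. Fkbp5, 1 of the 2 called lower, differed by −1.94 ± 0.34, with 7.40, 8.27 and 9.01 in adult fragments against 9.95, 10.29 and 10.28 in embryonic fragments. Tsc22d3 gave −0.46 ± 0.36 and Per1 −0.68 ± 0.40, and neither passed the test. Both had their highest adult value in replicate 2. Any part of glucocorticoids in the differences of Klf9 and Klf15 was not tested. Against rest of brain, 6 of the 15 were higher and 2 lower in embryonic fragments (median 0.27), with Sult1a1 and Sgk1 higher by 2.67 ± 0.31 and 2.65 ± 0.10 and Nr3c2 at least 5.33-fold lower.

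Of 8 tested thyroid hormone genes 3 were higher and 0 lower in adult fragments (median 0.18), among them Thrsp by 3.09 ± 0.33 and Ncoa1 by 1.08 ± 0.17. In embryonic fragments 2 were higher and 4 lower than in rest of brain (median −0.61). Slco1c1, a thyroxine carrier of brain vessels, was higher there by 4.27 ± 0.11, and the receptor gene Thra was lower by −2.46 ± 0.15, like Thrsp, by −2.05 ± 0.33. Slco1c1 gave −0.05 between the ages.

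Clock genes were also read between the ages. Of 15 tested, 11 were higher and 2 lower in adult fragments than in embryonic fragments (median 1.32). Dbp, a clock output gene, had 12.27, 13.53 and 13.19 in adult fragments, against 7.93, 7.89 and 7.98 in embryonic fragments, a difference of 5.06 ± 0.28 (adjusted p = 1.42e-06). Nr1d1, a clock repressor, had 6.04, 4.65 and 7.14 in adult fragments and lay at background in embryonic fragments, at least 3.85-fold higher. Nr1d2 and Per3 were higher by 3.02 ± 0.13 and 3.06 ± 0.25, and Nfil3, which acts opposite to Dbp, was lower by −1.92 ± 0.12. The adult arrays stayed apart from the embryonic ones while spreading among themselves, and the time of day at collection is not stated. In embryonic fragments 3 clock genes were higher than in rest of brain and 3 lower (median −0.10), with Bhlhe40 and Clock higher by 3.83 ± 0.27 and 1.24 ± 0.25 and Cry2 lower by −1.39 ± 0.11.

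Partners and downstream genes came last. Of 9 cofactor genes that KLF proteins recruit, 2 were higher and 2 lower in embryonic fragments than in rest of brain (median −0.02), with Hdac1 and Kat2b higher by 0.77 ± 0.15 and 0.74 ± 0.16 and Hdac2 lower by −1.15 ± 0.11. Between the ages 3 were higher and 3 lower in adult fragments (median 0.21), with Kat2b and Ctbp2 higher by 1.25 ± 0.16 and 0.55 ± 0.20 and Hdac2 lower by −0.92 ± 0.11. Amino acid breakdown is a pathway KLF15 is known to control in liver and muscle. Of 10 tested genes of it, 2 were higher and 6 lower in embryonic fragments than in rest of brain (median −0.69). With arrays centred on their medians 1 was higher and 5 lower. Klf15 was lower in this comparison too. A link between them, and the part of the cell types given above, was not tested. Bcat1 had 3.57, 3.71 and 3.65 in embryonic fragments and 10.62, 10.25 and 10.38 in rest of brain, at least 85.5-fold lower, and Gpt2 was lower by −2.83 ± 0.16, whereas Prodh was higher by 1.32 ± 0.26. Between the ages 2 were higher and 4 lower in adult fragments (median −0.03), with Aass at least 3.04-fold higher and Bckdhb lower by −1.04 ± 0.26. Bcat1 was called lower too, with both ages under 4. Klf15 itself gave 1.21 ± 0.54 between the ages without passing the test. In the reported fit more genes of this list were called against its sign than with it. That balance depended on the scaling. After a further quantile normalization, and after cyclic loess, 3 were called higher and 3 lower (medians 0.10 and 0.07).

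For each member the tested genes with the most similar pattern were found by the root mean square difference of log2 values centred on each gene's mean over the 9 arrays. Klf2 was closest to Zc3hav1 (0.24), Tns2 (0.27) and Itpr3 (0.27). For Klf4 they were Fzd4 (0.19), the receptor of the vascular ligand Norrin, Erap1 (0.21) and AI467606 (0.24). Klf6 had Adamts1 (0.18), Kitl (0.19) and Kif16b (0.20). Klf9 had Kcnmb1 (0.13), which encodes a potassium channel subunit of smooth muscle, Gm15663 (0.18) and Dsg2 (0.19). Kcnmb1 gave −0.00057 between embryonic fragments and rest of brain and 3.47 between the ages, close to the −0.02 and 3.60 of Klf9.

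The closest genes to Klf3 were Zfp36l1 (0.07), Yap1 (0.10) and Lmbrd1 (0.10), and to Klf7 they were Dhx30 (0.12), Ube2v2 (0.13) and Ppp2r5e (0.14). Klf10 was nearest to Rapgef6 (0.12), Frmd6 (0.12) and Laptm4b (0.16), and Klf13 to Gne (0.15), Atp7a (0.17) and Tecpr1 (0.18). Klf15 had the loosest matches of the 9 members, A2m (0.40), Pcdh15 (0.48) and Pdpn (0.51). With 9 arrays in 3 groups these distances mostly reflect the group means.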

How the data were processed

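Per the labels, 9 samples of mouse brain were measured in 3 groups of 3 biological replicates. The deposited table holds 1 log2 intensity per probe set and array. The submitters' processing notes name GCRMA (version 2.6.0) and R (version 2.4.1) as the tools the authors used. That the scale is log2 was read from the range of the values, other steps of theirs are not known, and scanner files were not used here.

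The platform table names a single gene for 34958 of 45101 probe sets, several genes for 932 and none for 9211. Symbols were looked up in a RefSeq table of GRCm38.p6. A single limma model (version 3.58.1, R version 4.3.3; lmFit, eBayes) of all 9 arrays had group as its factor, with 2-sided tests. Benjamini-Hochberg adjustment ran over all 12009 genes in each comparison, and calls needed an adjusted p under 0.05. An error given with a difference is the standard error of the fit. Genes below 4 in every array of 1 group were taken as background there. A fold written "at least" is 2 to the power of the brighter group's mean log2 value minus that limit of 4. The code was tested on simulated data.

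The members, the gene lists (from textbook knowledge) and the tests were chosen with earlier results of these data known. All members are named. A pathway list is represented by its called genes alone, namely the 2 that differed most on the side where more were called and the 1 that differed most on the other side, and from the other KLF and SP genes all. From each cell type list they are the 2 genes of highest mean. Piezo1, Map3k3, the MEF2 genes, Thbd, S1pr1, Nr3c1, Tsc22d3, Per1, Per3, Nr1d2 and Gfap were named after their values were seen, as were Nos3, Slco1c1 and Rasip1 in the comparison of the ages and Mapk7 and Cyp1b1 in embryonic fragments against rest of brain. The fit of every probe set of the members, adjusted over 20636 probe sets, was added after the data were seen.

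Same-numbered embryonic fragment and rest of brain samples deviated together from their group means (r = 0.19, 0.20 and 0.22), while other pairs had r below 0. Deviations from a group mean sum to 0, so the signs of these pairs depend on each other. Same-numbered pairs with adult fragments had r from −0.09 to 0.21. Adult and embryonic fragments share no animal and yet reached 0.21, so these values cannot decide whether the numbers pair the samples. The reported fits took no pairing into account. No 2 arrays were identical. Alternatives changed the normalization, the filter, the handling of low values, the weights, the variance prior, the arrays in the fit, the replicate block and the choice of probe set, and left out each array in turn.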

Additional observations from a re-analysis of the deposited data

How the results depend on the processing

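The counts of members called stayed within 1.5 times the reported ones under all alternatives: 7 to 8 for embryonic fragments against rest of brain, 4 to 6 for adult against embryonic fragments and 7 to 9 for adult fragments against rest of brain. Between the ages the 5 higher and 0 lower became 4 and 2 with the next probe set or the mean of the probe sets. Leaving out each array in turn gave 8, 4 to 5 and 7 to 9. The replicate block ended 1 call, Klf3 between the ages (adjusted p = 0.0736), leaving 4 members called there, and changed no other call of a member. Same-numbered adult and embryonic samples share only a number. With the next probe set Klf3 gave −0.91 between the ages and with the mean of its probe sets −0.47, and Klf7 gave 0.40 in adult fragments against rest of brain. Klf9 in embryonic fragments against rest of brain turned to 0.15 with the next probe set or without probe sets of shared probes, and it was 0.050, 0.02 and 0.05 on leaving out in turn the first or second rest of brain array or the third of embryonic fragments, never passing the test. Over leave-one-out fits it ran from −0.12 to 0.05. In the added fit of every probe set, Klf3 between the ages gave −0.91, −0.90, −0.61 and −1.03, Klf6 −0.40 and −0.12 and Klf7 −0.21. In that fit Klf7 gave 0.40 and 0.83 in adult fragments against rest of brain, and Klf9 0.15 and 0.020 in embryonic fragments against rest of brain. Klf13 between the ages also passed with arrays centred on their medians (−0.69, adjusted p = 0.0497) and with a trend in the prior (adjusted p = 0.0479), and Klf15 with array weights (1.34, adjusted p = 0.0213). Klf7 in adult fragments against rest of brain lost its call with cyclic loess (−0.35), without the filter and with array weights. Klf3 between the ages lost its call with arrays centred on their medians (adjusted p = 0.0517) and in 7 of 9 fits without 1 array. Cyclic loess moved the median of all tested genes by 0.14 in adult fragments against rest of brain. Under the 3 scalings 0 called genes of the lists changed direction. The cause of these changes was not tested. With 3 arrays per group, small differences between the ages remain hard to call.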
